A study of Mus musculus with 6 samples.

Results

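The neuronal intermediate filament genes are the 5 genes that encode the filament proteins of neurons, Nefl, Nefm, Nefh, Ina and Prph. They were taken by gene symbol, and all 5 were found among the 24411 gene symbols counted and among the 15303 genes that were expressed highly enough to be tested. They were measured by poly(A) RNA-seq of cochlear tissue from C57BL/6N mice at P9, before the onset of hearing. The study compared mice that overexpress Kir2.1 (Kir2.1-OE; genotype Otof rtTA+/- and Kir2.1+/-) with littermate controls (genotype Otof rtTA+/- and Kir2.1+/+), and mice of both groups drank water with 0.5 mg/ml of doxycycline (DOX). In Kir2.1-OE mice DOX switches on a transgene for the inward rectifier K+ channel Kir2.1, linked to a tau-lacZ reporter, through an activator driven by the Otof promoter, which is active in hair cells and mainly the inner hair cells, so the controls carry the activator and received the drug but lack the transgene. There were 3 libraries per group, each from a pool of 8 cochleae of 4 mice. The pool is therefore the replicate, and the p-values measure the spread between pools.

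Neurofilaments are long polymers that fill axons and set their calibre. Nefl, the light chain, forms the core and assembles with the medium chain Nefm, the heavy chain Nefh and either alpha-internexin (Ina) or peripherin (Prph), and the long tails of Nefm and Nefh carry many phosphorylation sites. In the cochlea these proteins are found in spiral ganglion neurons and their fibres, which contact the hair cells, and peripherin is a known marker of the type II neurons that innervate outer hair cells. Neurons and their fibres are not the cells in which the transgene is meant to be expressed.

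The 5 genes lie at 4 places in the mm10 genome (GENCODE vM21 annotation). Nefl (ENSMUSG00000022055.7, chr14:68083863-68089095, plus strand) and Nefm (ENSMUSG00000022054.11, chr14:68082590-68124846, minus strand) are neighbours, and 1 annotated transcript of Nefm runs across the whole of Nefl on the opposite strand. Nefh (ENSMUSG00000020396.8) is at chr11:4938754-4948064 on the minus strand. Ina (ENSMUSG00000034336.3, chr19:47014698-47025327, plus strand) overlaps the start of Nt5c2, on the opposite strand, by 456 bases. Prph (ENSMUSG00000023484.14) is at chr15:99055174-99058978 on the plus strand and overlaps no other annotated gene. Of the 31-base words of the Nefl transcript, 32.2% also occur in antisense in Nefm transcripts, and 13.3% of those of Ina occur in antisense in Nt5c2 transcripts. The strand setting of the counting is not given in the sources used here, so reads from a gene and its antisense partner may not have been told apart, and the values of Nefl, Nefm and Ina carry that uncertainty. The deposited counts of Nefl and Prph were whole numbers in every library, and those of Nefm, Nefh and Ina were not.

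Promoter sequence was at hand for Ina and Prph only, so these are shown here (RefSeq, GRCm38.p6, plus strand, the 250 bases before the transcription start). Whether their motifs bear on the changes in Kir2.1-OE was not tested. Capitals mark each match, on either strand, to a motif from 3 searched. The first was the TATA box, TATAAA. The second was the CCAAT box, spelled as its name says. The third was the GC box, which reads GGGCGG.
Ina, chr19:47014431-47014680: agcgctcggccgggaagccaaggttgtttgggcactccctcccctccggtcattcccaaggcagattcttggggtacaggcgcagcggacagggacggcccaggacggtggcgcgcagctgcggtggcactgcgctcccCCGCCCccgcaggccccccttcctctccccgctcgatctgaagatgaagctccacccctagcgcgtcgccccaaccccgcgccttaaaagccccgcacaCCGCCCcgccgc
Prph, chr15:99054924-99055173: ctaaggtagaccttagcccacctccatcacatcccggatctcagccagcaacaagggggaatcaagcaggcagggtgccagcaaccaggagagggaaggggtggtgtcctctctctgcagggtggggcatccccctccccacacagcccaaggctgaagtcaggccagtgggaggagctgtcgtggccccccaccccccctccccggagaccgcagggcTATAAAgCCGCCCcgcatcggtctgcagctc
The Ina window held 2 GC boxes, beginning 111 and 12 bases before the start, and no match to the other motifs. The Prph window held a TATA box 31 bases before the start and a GC box 24 bases before it, and no CCAAT box. Of 32851 mouse promoters of the same length, 12.4% held TATAAA, 33.8% CCAAT and 32.7% GGGCGG. G and C made up 70.8% of the Ina window and 65.2% of the Prph window, against a median of 52.4% over all promoters. Promoters of Nefl, Nefm and Nefh are not shown.

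The libraries held between 35430940 and 41205047 assigned reads. Kcnj2, the gene for Kir2.1, checked the labels: it had 235.8, 228.1 and 226 normalized counts (counts scaled by edgeR's TMM library sizes) in the controls and 3612, 3813 and 2213 in the Kir2.1-OE libraries. Kir2.1-OE replicate 3, the library with the fewest Kcnj2 counts of its group, was the one with the most counts of every neuronal filament gene. Defining markers of neurons were present in all libraries. Chat, the acetylcholine-synthesising enzyme of efferent neurons, had no read in any library, which allows a share of up to 8.47e-06% of the reads in the smallest library (3 counts, for counting error only), and Slc18a3, the vesicular acetylcholine transporter, had at most 2.

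Transcripts of 4 of the 5 neuronal filament genes rose in Kir2.1-OE cochleae: Nefh by 5.74-fold, Nefm by 3.84-fold, Ina by 3.30-fold and Nefl by 2.93-fold. Prph was the exception, with a fold of 1.11 and overlapping groups. A gene was called when its adjusted p in edgeR's quasi-likelihood test (Benjamini-Hochberg over all genes tested) was under 0.05 and its fold change was above 1.5. By this rule 15.5% of all genes tested were called higher in Kir2.1-OE and 5.08% lower. The 4 called genes were also those in which every Kir2.1-OE library lay above every control, which held for 31.7% of all genes. The median log2 fold change over the 5 genes was 1.72, against 0.0096 over all genes. In bulk tissue, more neurons or fibres in the pool and more RNA per neuron cannot be told apart.

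**Figure D1:**
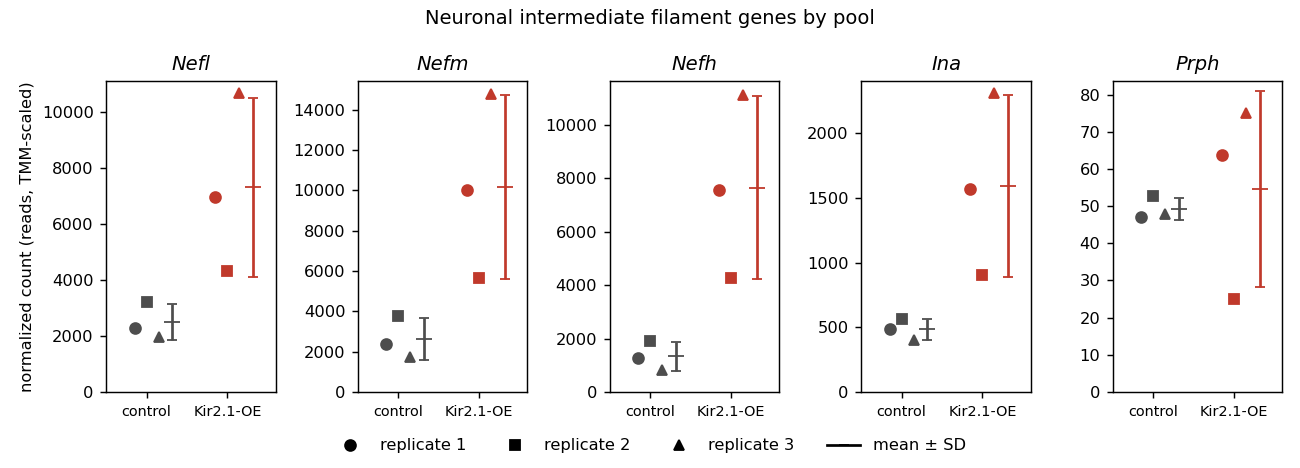
Normalized counts of Nefl, Nefm, Nefh, Ina and Prph in each pool (linear axes that start at 0 and differ between genes), 1 symbol per replicate, with the mean ± SD of each group of 3 beside the points. For the first 4 genes all Kir2.1-OE pools lie above all controls, and for Prph the Kir2.1-OE pools lie on both sides of the controls.

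The core subunit Nefl had 2284, 3217 and 1974 normalized counts in control replicates 1 to 3 and 6943, 4298 and 10647 in Kir2.1-OE replicates 1 to 3. Every Kir2.1-OE pool was above every control, although the lowest of them was only 1.34 times the highest control. The mean rose from 2492 ± 647 to 7296 ± 3189 (SD, n = 3), a log2 fold change of 1.55 ± 0.293 (SE; 95% interval 0.89 to 2.21; adjusted p = 0.00217 in edgeR's quasi-likelihood test).

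Nefm, the medium chain, had 2401, 3771 and 1743 normalized counts in the controls and 10021, 5643 and 14761 in the Kir2.1-OE pools. The groups were again separate, with a factor of 1.5 between the nearest pools. The mean went from 2638 ± 1035 to 10142 ± 4560 (SD, n = 3), and the log2 fold change was 1.94 ± 0.349 (SE; 95% interval 1.16 to 2.73; adjusted p = 0.00170 in edgeR's quasi-likelihood test).

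Nefh encodes the heavy chain, which is added late as axons mature. It had 1279, 1902 and 813 normalized counts in the controls and 7554, 4259 and 11120.3 in the Kir2.1-OE pools. The groups stood furthest apart of the 5 genes, the lowest Kir2.1-OE pool being 2.24 times the highest control. Its mean was 1331 ± 546 in controls and 7645 ± 3432 in Kir2.1-OE (SD, n = 3). The log2 fold change of 2.52 ± 0.366 (SE; 95% interval 1.70 to 3.34; adjusted p = 6.04e-04 in edgeR's quasi-likelihood test) ranked 9 of the 15303 genes tested, while Nefm ranked 61, Ina 126 and Nefl 196.

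Ina, which co-assembles with the neurofilament chains, was less abundant, with 486, 564 and 401 normalized counts in the controls and 1569, 905 and 2308 in the Kir2.1-OE pools. No control reached the lowest Kir2.1-OE pool, and the nearest pools differed by a factor of 1.6. The mean changed from 483.6 ± 81.6 to 1594 ± 702 (SD, n = 3), with a log2 fold change of 1.72 ± 0.286 (SE; 95% interval 1.07 to 2.36; adjusted p = 0.00117 in edgeR's quasi-likelihood test).

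Prph, the filament gene of peripheral and type II neurons, had 47.2, 52.7 and 47.8 normalized counts in the controls and 63.6, 25 and 75.1 in the Kir2.1-OE pools. Kir2.1-OE replicate 2 was below all controls and the other two were above them. The means were 49.2 ± 3.02 and 54.6 ± 26.3 (SD, n = 3), and the log2 fold change was 0.14 ± 0.366 (SE; adjusted p = 0.765 in edgeR's quasi-likelihood test). Its 95% interval, from -0.68 to 0.97, includes changes above 1.5-fold in either direction, so the data do not show that Prph stayed the same. At 25 reads in the lowest library, Prph was also the gene with the fewest reads behind it.

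**Figure D2:**
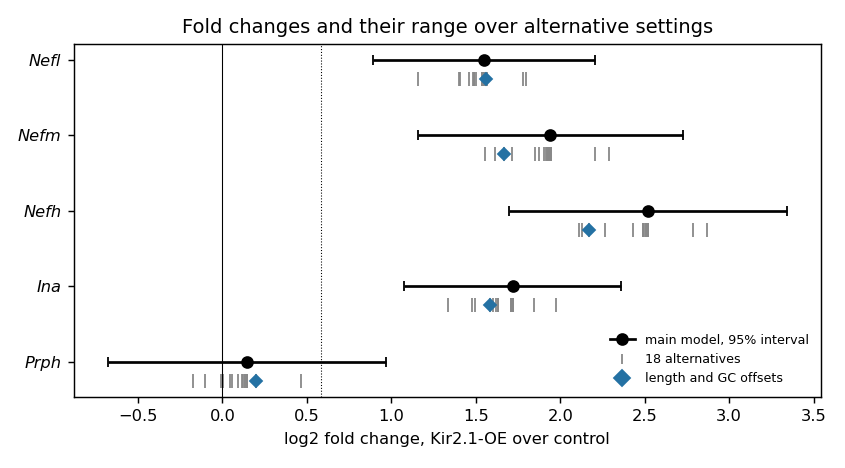
Log2 fold change (Kir2.1-OE over control) of the 5 genes: the circle and bar give the estimate and its 95% interval, the ticks below it the 18 alternative settings, the diamond the one with offsets, and the dotted line a 1.5-fold change. The intervals of Nefl, Nefm, Nefh and Ina lie above 0, with Nefh highest at 2.52 (2.17 with offsets), and the interval and ticks of Prph lie on both sides of 0.

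The genes differ in transcript length and base composition, so the fit was repeated with offsets that remove each library's trend on length and GC content. With the offsets, 6.81% of all genes were called higher, and the same 4 filament genes were among them. The log2 fold changes were then 1.56 for Nefl, 1.67 for Nefm, 2.17 for Nefh and 1.59 for Ina, with adjusted p of 0.00485, 0.00794, 0.00345 and 0.00477 in edgeR's quasi-likelihood test. Prph had 0.20 (adjusted p = 0.715 in the same test). The 4 genes were also called when each library was left out in turn.

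The pools of a group differed widely, and the 4 genes differed together. In Kir2.1-OE, replicate 3 was highest and replicate 2 lowest for each of Nefl, Nefm, Nefh and Ina, and in the controls replicate 2 was highest and replicate 3 lowest. The coefficient of variation between Kir2.1-OE pools was between 43.7% and 45.0% for the 4 genes. Between control pools it was 26.0% for Nefl, 39.2% for Nefm, 41% for Nefh and 16.9% for Ina. Prph had the order of the other genes in Kir2.1-OE, with a coefficient of variation of 48.1%, but varied by only 6.14% between controls.

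To compare the levels of the genes with each other, counts were divided by transcript length and library size (RPKM). On this scale the control means were 19.7 for Nefl, 19.1 for Nefm, 8.90 for Nefh, 3.98 for Ina and 0.705 for Prph (n = 3). Nefl and Nefm differed by less than their spread in controls (SD 5.15 and 7.55), and Nefh lay below both. In Kir2.1-OE the means were 73.5 for Nefm, 57.6 for Nefl, 51.1 for Nefh, 13.1 for Ina and 0.783 for Prph, and the first 3 of these differed by less than their SDs of 23.2 to 33.4. The differences between pools were shared by the genes, however, so the proportions within a pool were far steadier than the levels.

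Of the summed level per kilobase of Nefl, Nefm, Nefh and Ina, Nefh took 17.8%, 18.1% and 14.7% in control replicates 1 to 3 and 26.4%, 25.7% and 26.1% in Kir2.1-OE replicates 1 to 3. The Nefh share was therefore higher in every Kir2.1-OE pool, and it spanned less than 1 percentage point there although the levels spanned more than a factor of 2. Nefl took 37.6%, 36.2% and 42.2% in the controls and 28.7%, 30.6% and 29.6% in Kir2.1-OE, so its share was lower in each Kir2.1-OE pool. The shares of Nefm (34.2% to 39.0% in controls, 36.9% to 38.1% in Kir2.1-OE) and of Ina (6.6% to 8.9% and 6.7% to 6.8%) overlapped between the groups.

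**Figure D3:**
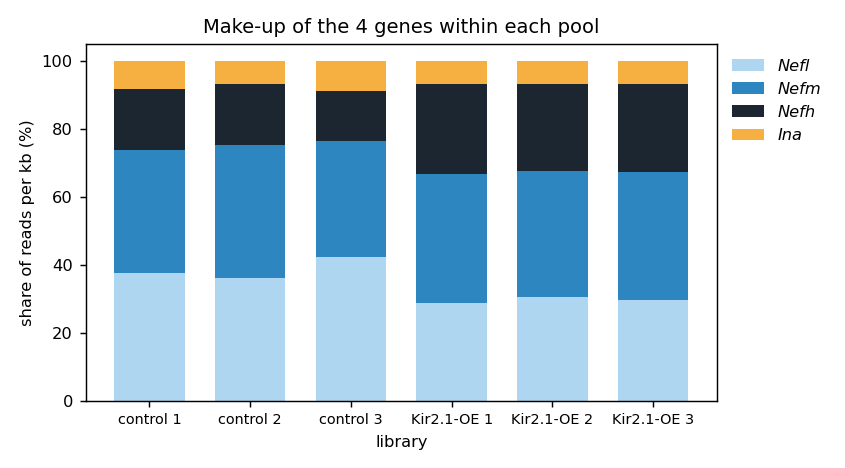
Share (%) of Nefl, Nefm, Nefh and Ina in their summed reads per kilobase in each of the 6 pools. Nefh makes up 14.7% to 18.1% in the controls and 25.7% to 26.4% in the Kir2.1-OE pools, and Nefl falls from between 36.2% and 42.2% to between 28.7% and 30.6%.

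The same contrast was measured as the log2 ratio of each gene to Nefl within a library, which does not depend on scaling between libraries. For Nefh the ratio was -0.836, -0.758 and -1.278 in the controls and 0.122, -0.013 and 0.063 in Kir2.1-OE, so that the groups did not overlap and the means differed by 1.01. The difference for Nefm was 0.42, also without overlap, and that for Prph was -1.48. Nefl itself had a log2 fold change of 1.55 and Prph one of 0.14, so the Prph ratio largely restates the rise of Nefl. The two-sided exact permutation p was 0.10 for each of these 3 ratios, the smallest that 3 pools against 3 can give (0.133 after Benjamini-Hochberg adjustment over the 4 ratios). The ratio of Ina to Nefl overlapped between groups (difference 0.15; two-sided exact permutation p = 0.20, also 0.20 adjusted), and its difference was -0.0056 once the offsets were applied. With the same offsets the differences from Nefl were smaller for Nefh (0.63) and Nefm (0.12) and close to that above for Prph (-1.45). The shares given above carry no such correction.

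Some markers of neurons moved with the filament genes and others did not. Of 14 neuron markers, 8 were called higher, 1 lower and 5 neither, beside 15.5% and 5.08% of all genes, and their median log2 fold change was 0.88. The highest were the RNA-binding protein gene Elavl3 (2.27), the sensory neuron transcription factor gene Pou4f1 (1.64) and the splicing factor gene Rbfox3 (1.58). Snap25, for a protein of vesicle fusion, rose by 1.10 and Slc17a7, for a vesicular glutamate transporter, by 1.01. The tubulin gene Tubb3 (0.38, adjusted p = 0.216 in edgeR's quasi-likelihood test) and the stathmin gene Stmn2 (0.68, adjusted p = 0.097 in the same test) were not called. At the low end were Uchl1, an abundant neuronal ubiquitin hydrolase and the 1 marker called lower (-0.80), the synaptotagmin gene Syt1 (-0.13) and the growth cone gene Gap43 (-0.12). Without control replicate 3 the number called higher was 4, beside 2247 of 15484 genes. Without Kir2.1-OE replicate 3 it was also 4, beside 2314 of 15478 genes. With the offsets 6 markers were called higher, beside 6.81% of all genes, and Slc17a7 (0.89) and Uchl1 (-0.48) were not called. By glmTreat, which tests against a log2 fold change of 0.6, 2 were called higher, beside 832 of 15303 genes.

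The summed neuron markers had 26243 to 36309 normalized counts in controls and 24879 to 46987 in Kir2.1-OE, so the sums overlapped. Without Uchl1, a choice made after its value was seen, they were 12950 to 17736 and 16014 to 36859, which still overlapped. Kir2.1-OE replicate 3 had the highest value of its group for all 14 markers and replicate 2 the lowest for 11 of them. In the controls replicate 3 was lowest for 12 and replicate 2 highest for 9. The order of the pools was thus largely that of the filament genes, and the part of neuron content in the filament changes was not tested as a cause.

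The log2 fold changes of the 14 neuron markers ranged from 2.27 (Elavl3) to -0.80 (Uchl1), so their mean need not follow neuron content. As a measure relative to these markers only, chosen after the data were seen, their mean log2 count was subtracted from that of each filament gene within each library. Nefh then differed by 1.77 between the groups, Nefm by 1.18, Ina by 0.90 and Nefl by 0.76, each with all Kir2.1-OE pools above all controls. Prph differed by -0.72, with all Kir2.1-OE pools below all controls. Because the markers had a median log2 fold change of 0.88, a gene that did not change would also fall on this measure. Prph itself had a log2 fold change of 0.14, with overlapping groups. Each of the 5 differences had a two-sided exact permutation p of 0.10, the smallest possible (0.10 also after adjustment over the 5). Compared with the mean of these 14 markers, the 4 filament genes were higher in every Kir2.1-OE pool and Prph lower in every one. No other set of markers was tried. Single markers differed: Elavl3 (2.27) rose more than Nefm, Ina and Nefl, and Pou4f1 (1.64) and Rbfox3 (1.58) more than Nefl. The other markers lay below all 4 filament genes. With the offsets the differences were 1.435 for Nefh, 0.92 for Nefm, 0.80 for Ina, 0.81 for Nefl and -0.64 for Prph.

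Markers of other cells were measured too, and over all genes 15.5% were called higher and 5.08% lower (6.81% higher with the offsets). Of 10 glial and myelin genes 5 were called higher, and 2 without Kir2.1-OE replicate 3 (beside 2314 of 15478 genes). Their median log2 fold change was 0.60, with sums of 301894 to 394297 normalized counts in controls and 432947 to 550453 in Kir2.1-OE. The highest were the myelin gene Prx (1.16), the Schwann cell transcription factor gene Egr2 (0.77) and the myelin glycoprotein gene Mag (0.72), and the lowest S100b (0.09), Sox10 (0.38) and Pmp22 (0.39). With the offsets 5 glial genes were again called higher, with Pmp22 (0.67) among them and Prx (0.56) not. Of 8 hair cell genes 3 were called higher, Myo7a (1.17), Otof (0.76) and Slc26a5 (0.62), while Ocm (-0.30), Gfi1 (-0.25) and Pou4f3 (0.05) were lowest, and the sums overlapped (43154 to 48500 in controls, 44277 to 53750 in Kir2.1-OE). With the offsets Otof had -0.03 and Myo7a 0.38, and only Slc26a5 (0.75) of the 8 was called. Of 3 melanocyte genes tested 2 were called lower, Dct (-1.81) and Tyr (-2.07), and Pmel had -0.48, with sums of 869 to 1061 in controls and 362 to 464 in Kir2.1-OE. Tyr rested on few reads, with 87.3, 43.6 and 44.8 normalized counts in controls and 4.1, 7 and 30.7 in Kir2.1-OE. Of 4 erythrocyte genes Hba-a1 (-1.18) and Alas2 (-1.02) were called lower, with sums of 16423 to 41562 in controls and 10119 to 12947 in Kir2.1-OE, but neither was called with the offsets (adjusted p = 0.140 and 0.0704 in edgeR's quasi-likelihood test). Of 5 macrophage genes 0 were called in edgeR, DESeq2 or limma-voom (2 had an unadjusted p under 0.05), with values from -0.21 for C1qa to 0.47 for Csf1r and sums of 4246 to 4601 and 4662 to 5069, and with the offsets Cd68 (0.61) was called higher. Of 3 efferent neuron genes listed only the choline transporter gene Slc5a7 was tested, with -0.29 (adjusted p = 0.345 in edgeR's quasi-likelihood test). Since Chat had no read and Slc18a3 at most 2, the cell source of the Slc5a7 reads was not established. The sums of the glial, melanocyte, erythrocyte and macrophage genes did not overlap between the groups, and their part in the filament values was not tested.

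Of 16 other intermediate filament genes listed, 14 were tested, 2 were called higher and 12 were not called, a share close to the 15.5% of all genes called higher. Their median log2 fold change was 0.01, near that of all genes. The 2 were Nes (1.05), the filament gene of neural progenitors and other immature cells, and Synm (1.03), whose product joins filaments of muscle and glia. Neither was called with the offsets, and Krt7 was then called lower (-0.78). Vim, the general filament gene of non-neuronal cells, had -0.26, and the astrocyte and glial filament gene Gfap had 0.67 (adjusted p = 0.482 in edgeR's quasi-likelihood test), with 253.8, 109 and 33.6 normalized counts in controls and 266.9, 37 and 325.8 in Kir2.1-OE. Keratins, the filaments of epithelial cells, were among the highest and the lowest of those not called, with 0.99 for Krt17, -0.57 for Krt7 and -0.72 for Krt15.

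Genes whose products link filaments to other structures or move them along axons were all called higher, 8 of 8, beside 15.5% of all genes. Their median log2 fold change was 1.53. The cytoskeletal linkers were Dst (2.27), Macf1 (1.67) and Plec (1.58). The kinesin heavy chains, which carry cargo towards the axon tip, were the neuronal Kif5a (2.24) and Kif5c (1.30) and the widely expressed Kif5b (0.65). Dync1h1, for the dynein heavy chain that moves cargo the other way, had 1.40. With the offsets 4 of these 8 were called higher, beside 6.81% of all genes, and the list median was 0.62. The 4 were Kif5a (1.64), Dst (0.96), Kif5c (0.83) and Myo5a (0.77), and Macf1, Plec, Dync1h1 and Kif5b were not called.

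Enzymes that phosphorylate filament tails or remove the phosphate, and their partners, made a list of 10 genes. Of these 2 were called higher, a share close to the 15.5% of all genes called higher. The 2 were Cdk5r1 (0.67), an activator of Cdk5, and the kinase gene Gsk3b (0.62), and the list median was -0.15. Cdk5r2, the other activator, had 0.84 (adjusted p = 0.051 in edgeR's quasi-likelihood test), and low values included those of Cdk5 (-0.31) and Ppp2ca (-0.30). With the offsets neither of the 2 was called, and Ppp2ca was called lower (-0.68).

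**Figure D4:**
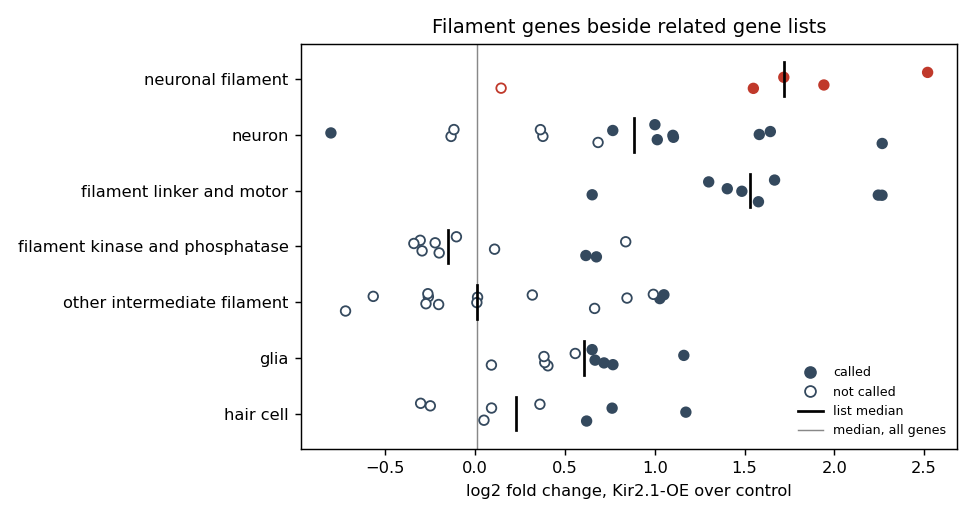
Log2 fold change (Kir2.1-OE over control) of each gene in the neuronal filament list, the related lists and the neuron, glia and hair cell lists, 1 point per gene, with called genes filled, the list median as a short black line and the median of all genes as a grey line. The neuronal filament genes (median 1.72) and the linker and motor genes (median 1.53) lie furthest to the higher side, and the other intermediate filament genes centre on 0.01; with the offsets, not drawn here, the median of the linker and motor genes was 0.62, below that of the neuron markers (0.86).

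The genes whose levels followed each filament gene most closely over the 6 libraries were found among 13640 genes with a mean of at least 50 normalized counts, by the root mean square difference of log2 counts centred on each gene's own mean. Since this measure includes the difference between the groups, it is given as a description only. For Nefl they were the sodium channel gene Scn1a (0.061), the acid-sensing channel gene Asic3 (0.07) and Sez6 (0.072), and those near Ina included the sodium channel subunit gene Scn4b (0.07) and again Scn1a (0.092). Nefm was nearest to Rph3a (0.073), a gene of synaptic vesicles, Camk4 (0.122) and Mdga1 (0.131). Nefh, with the largest change, had less close neighbours, the nearest being the membrane skeleton gene Ank1 (0.149), the long non-coding RNA Meg3 (0.171) and Iqsec3 (0.189). The genes nearest to Prph were Birc5 (0.197), Pcdha9 (0.206) and Map3k15 (0.207). Among the filament genes themselves Nefl and Ina were closest (0.116) and Nefh and Prph furthest apart (1.296).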

How the data were processed

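Poly(A) RNA from pools of P9 mouse cochlear sensory epithelium was sequenced in pairs of reads by the study, mapped to mm10 (per the submitters' processing notes) with the nf-core RNA pipeline and quantified with Salmon. The authors deposited expected counts, estimated read numbers per gene symbol that need not be whole, not scaled for length or depth. Tool versions, gene annotation and strand setting are not given in the sources used here. The title of control replicate 1 gives that number and its column header the number 4, and the title was followed.

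Counts were rounded and fitted over all genes with edgeR 4.0.16 in R 4.3.3 (filterByExpr, TMM factors 0.984 to 1.01, quasi-likelihood test, Benjamini-Hochberg adjustment), with genotype as the only term. Genes were called at an adjusted p under 0.05 and a fold above 1.5. Ratios within a library used counts with 0.5 added and a two-sided exact permutation test. Transcript length and GC content came from the longest GENCODE vM21 transcript, matched by symbol for 23376 genes and by an older symbol for 670, with 365 unmatched. The offsets were a loess trend (span 0.4) per library. Libraries of the same group differed by a chi-square of 15.7 to 31.2 per degree of freedom, so none was counted as a duplicate. The fit was tested on simulated data with 200 changed genes.

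The members and lists were chosen with earlier results of these data known. Named from each list were the 3 highest and 3 lowest genes and a few preset genes, the 3 genes nearest in pattern to each filament gene, and Kcnj2, except for some genes that are not reported here. Alternatives were DESeq2 size factors, upper quartile scaling, library size only, other filters, a replicate block, length and GC offsets with and without it, DESeq2 1.42.0, limma-voom (limma 3.58.1), glmTreat, 5 added to each count for ratios, and each library left out. The measure relative to neuron markers and the fit without both highest libraries were added after seeing the data.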

Additional observations from a re-analysis of the deposited data

How the results depend on the processing

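Nefl, Nefm, Nefh and Ina were called higher under all 18 alternatives, with log2 fold changes of 1.16 to 1.79, 1.55 to 2.29, 2.11 to 2.87 and 1.34 to 1.98. Prph was never called, and its sign was not stable: its log2 fold change was -0.17 to 0.47 with 1 library left out (lowest without Kir2.1-OE replicate 3), -0.00901 in limma-voom and -0.10 without the highest library of each group, an alternative chosen after seeing the data. With the length and GC offsets the difference in the ratio to Nefl was -0.0056 for Ina, 0.12 for Nefm (0.42 without) and 0.63 for Nefh (1.01 without). Only the fold change of Prph and the ratio of Ina to Nefl changed sign, and the cause was not tested. Same-numbered pools did not deviate together (correlations -0.106, -0.232 and -0.213), which gave no sign that the numbers pair the samples. Values centred within 3 pools cannot exclude pairing, and the header number of control replicate 1 differs from its title. With a replicate block the log2 fold change of Nefh was 2.49 and 4 filament genes were called.

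Over all genes, 2365 were called higher and 778 lower. The counts were 1042 and 462 with the offsets, 778 and 383 with the offsets and the replicate block, 2220 and 718 with the block alone, 832 and 57 by glmTreat, and 1897 and 1378 with upper quartile scaling, where 57.9% of calls were higher in place of 75.2%. With 1 library left out, 1878 to 2527 of all genes were called higher and 536 to 1074 lower. In these fits 7 or 8 of the linker and motor genes and 1 or 2 of the kinase and phosphatase genes were called higher. Of the melanocyte genes 1 or 2 were called lower, and of the erythrocyte genes 0 to 3 (0 without control replicate 1). By glmTreat 1 of the glial genes was called higher, and with upper quartile scaling 3. Prph had 25 reads in its lowest library, and its standard error (0.366) equalled that of Nefh.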
